A study of Mus musculus with 27 samples.

Results

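The collagen genes of the mouse array were examined over every condition of a study of early fat cell differentiation. They are the genes whose probe sets carry a single symbol of the form Col, number, a, number in the platform annotation. This rule took 46 probe sets of 44 genes among 19938 genes tested: 11 fibrillar collagens, 6 type IV collagens of the basement membrane and 27 other collagens. Col6a5 and Col6a6 had 2 probe sets each, and the one with the higher mean over all arrays was used for each gene.

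The samples were cultures of the mouse preadipocyte line 3T3-L1, which grows as fibroblasts and can be induced to store fat. One set carried the empty pMIG vector and the other expressed Flag-tagged ISL1, which is a transcription factor of the LIM homeodomain family. Cells were used 2 days past confluence, before induction (0 h) or after a period in differentiation medium. Besides 10% fetal calf serum, the medium held insulin (350 nM), isobutylmethylxanthine (0.5 mM), dexamethasone (250 nM) and biotin (400 nM). There were 3 arrays, stated to be biological triplicates, in each of 9 groups: vector at 0, 0.5, 1, 2, 4, 8 and 48 h, and ISL1 at 0 and 48 h. The series design names early adipocyte gene expression and ISL1-regulated genes as its subjects. Every group comes from this one cell line in culture, and all hormones of the medium were given together.

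The values are log2 intensities, and a difference of 1 is a 2-fold difference in signal. At 0 h Isl1 read 7.37, 7.47 and 7.17 in the vector arrays and 12.64, 12.62 and 12.61 in the ISL1 arrays. At 48 h it read 7.48, 8.01 and 7.47 in the arrays labelled ISL1 and 12.79, 12.76 and 12.72 in the arrays labelled vector, which goes against the titles. No array was moved to another group: the text names the 48 h arrays by their label with their Isl1 signal beside it, and differences between them run from low to high Isl1 signal. With the titles taken as given, the sign of each such difference turns. Isl1 was itself 1.26 ± 0.11 (SE) higher in vector cells at 2 h than at 0 h, still far below the level of the ISL1 arrays.

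Collagens are triple helices of 3 alpha chains that are wound in the endoplasmic reticulum, secreted and assembled outside the cell. Fibrillar chains such as those of types I, III and V form the load-bearing fibrils that fibroblasts make, type IV chains form the sheet-like network of the basement membrane that surrounds each mature adipocyte, type VI chains form beaded filaments that lie between such structures, and several others decorate fibrils or bind basement membranes. Preadipocytes lay down a fibroblast-type matrix, and its replacement by a basement membrane is a known part of fat cell formation.

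The promoters shown here belong to the pair of type IV genes that rose in the first hours, to fibrillar genes that fell, to the gene with the largest fall at 8 h and to one with a large difference between constructs. They come from RefSeq (build GRCm38.p6) and run from 250 bases before the annotated start to 50 after it, read on the strand of the gene. Capitals mark the letters of a TATA box (TATAAA), of a CCAAT box (CCAAT) and of a GC box (GGGCGG) on either strand, so that their reverse complements are capitals too. The windows lie at chr8:11312777-11313076 on the minus strand (Col4a1), chr8:11312555-11312854 on the plus strand (Col4a2), chr6:4505368-4505667 on the plus strand (Col1a2), chr1:45311288-45311587 on the plus strand (Col3a1), chr16:57754688-57754987 on the minus strand (Col8a1) and chr6:8192568-8192867 on the minus strand (Col28a1).
Col4a1: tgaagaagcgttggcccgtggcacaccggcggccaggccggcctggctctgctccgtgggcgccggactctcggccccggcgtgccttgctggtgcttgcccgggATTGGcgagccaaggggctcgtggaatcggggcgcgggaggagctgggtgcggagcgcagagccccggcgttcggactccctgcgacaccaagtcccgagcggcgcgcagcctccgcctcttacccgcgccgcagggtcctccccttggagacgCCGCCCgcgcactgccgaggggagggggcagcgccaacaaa
Col4a2: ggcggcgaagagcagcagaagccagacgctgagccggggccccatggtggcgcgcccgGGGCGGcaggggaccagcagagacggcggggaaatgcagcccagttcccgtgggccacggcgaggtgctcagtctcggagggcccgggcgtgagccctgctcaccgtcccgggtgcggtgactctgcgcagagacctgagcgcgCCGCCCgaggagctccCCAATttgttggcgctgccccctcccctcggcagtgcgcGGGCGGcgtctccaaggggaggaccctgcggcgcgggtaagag
Col1a2: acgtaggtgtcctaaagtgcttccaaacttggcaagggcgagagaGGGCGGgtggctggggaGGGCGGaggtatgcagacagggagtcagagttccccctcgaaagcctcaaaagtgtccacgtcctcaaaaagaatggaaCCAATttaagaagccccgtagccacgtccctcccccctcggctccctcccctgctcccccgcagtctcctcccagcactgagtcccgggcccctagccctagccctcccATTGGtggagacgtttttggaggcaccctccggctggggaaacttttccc
Col3a1: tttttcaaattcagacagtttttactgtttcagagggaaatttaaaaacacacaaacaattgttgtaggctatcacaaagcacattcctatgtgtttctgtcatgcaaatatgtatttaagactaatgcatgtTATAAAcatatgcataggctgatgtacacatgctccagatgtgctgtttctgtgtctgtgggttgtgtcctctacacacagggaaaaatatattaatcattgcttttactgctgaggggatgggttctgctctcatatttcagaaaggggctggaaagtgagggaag
Col8a1: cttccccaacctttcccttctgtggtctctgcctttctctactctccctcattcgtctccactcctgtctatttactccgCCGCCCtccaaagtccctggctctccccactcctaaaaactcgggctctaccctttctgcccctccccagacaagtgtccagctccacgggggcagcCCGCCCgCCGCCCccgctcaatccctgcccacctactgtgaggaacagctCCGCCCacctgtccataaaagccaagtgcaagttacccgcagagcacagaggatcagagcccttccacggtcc
Col28a1: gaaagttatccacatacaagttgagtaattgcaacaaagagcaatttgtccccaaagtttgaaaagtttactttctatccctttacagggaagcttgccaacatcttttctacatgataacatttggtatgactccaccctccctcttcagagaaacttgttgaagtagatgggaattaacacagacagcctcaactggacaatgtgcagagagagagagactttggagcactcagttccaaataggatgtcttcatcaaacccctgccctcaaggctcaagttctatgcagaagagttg

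Col4a1 and Col4a2 are read in opposite directions from starts 21 bases apart, and their windows share 78 bases, chr8:11312777-11312854. The window of Col4a1 was 74% G or C and that of Col4a2 73.7%, against 61% for Col1a2, 60.3% for Col8a1, 41.7% for Col28a1 and 37.7% for Col3a1. The Col3a1 window held 1 TATAAA and no CCAAT or GGGCGG, the Col8a1 window held 4 GGGCGG matches, and the Col28a1 window held no match to any of the 3. Windows were held for 35 of the 44 genes (38 windows), with Col1a1, Col2a1, Col4a3, Col5a2, Col9a3, Col12a1, Col14a1, Col22a1 and Col26a1 unmatched.

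Over those 38 windows, GGGCGG was found in 23 (60.5%), against 35.7% of all 32851 windows of this length. The 23 are not all separate promoters: Col6a2 entered with more than 1 window, and Col4a1 and Col4a2 have a match in the bases they share. TATAAA was found in 13.2% against 13.6%, and CCAAT in 34.2% against 37.4%. Letters tied by textbook knowledge to the agents of the medium or to Isl1 were also searched on both strands. TGACG, the core of a cAMP response element, was in 10.5% of collagen windows and 20.8% of all, AGAACA, a glucocorticoid receptor half-site, in 5.26% and 19%, TTGCNNAA, the C/EBP dyad, in 7.89% and 10.8%, and CTAATG, a LIM homeodomain motif, in 5.26% and 7.36%. None of these motifs contains another, and a match describes letters in the window, not a binding site.

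Collagen signal spanned much of the array's range. Means over all 27 arrays ran from 7.34 for Col10a1 to 12.77 for Col1a2, and 31 of the 44 genes lay above 8.28, the median of all genes. All 44 means lay above 7.32, the 95th percentile of 1027 olfactory receptor genes, which these cells should hardly express. The difference between the highest and the lowest group mean had a median of 0.40 over the collagens and 0.45 over all genes, and it exceeded 1 in 12 of 44 collagens (27.3%) and in 21% of all genes. The widest were Col12a1 at 3.44, Col8a1 at 2.63, Col28a1 at 2.39 and Col1a1 at 2.12.

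**Figure D1:**
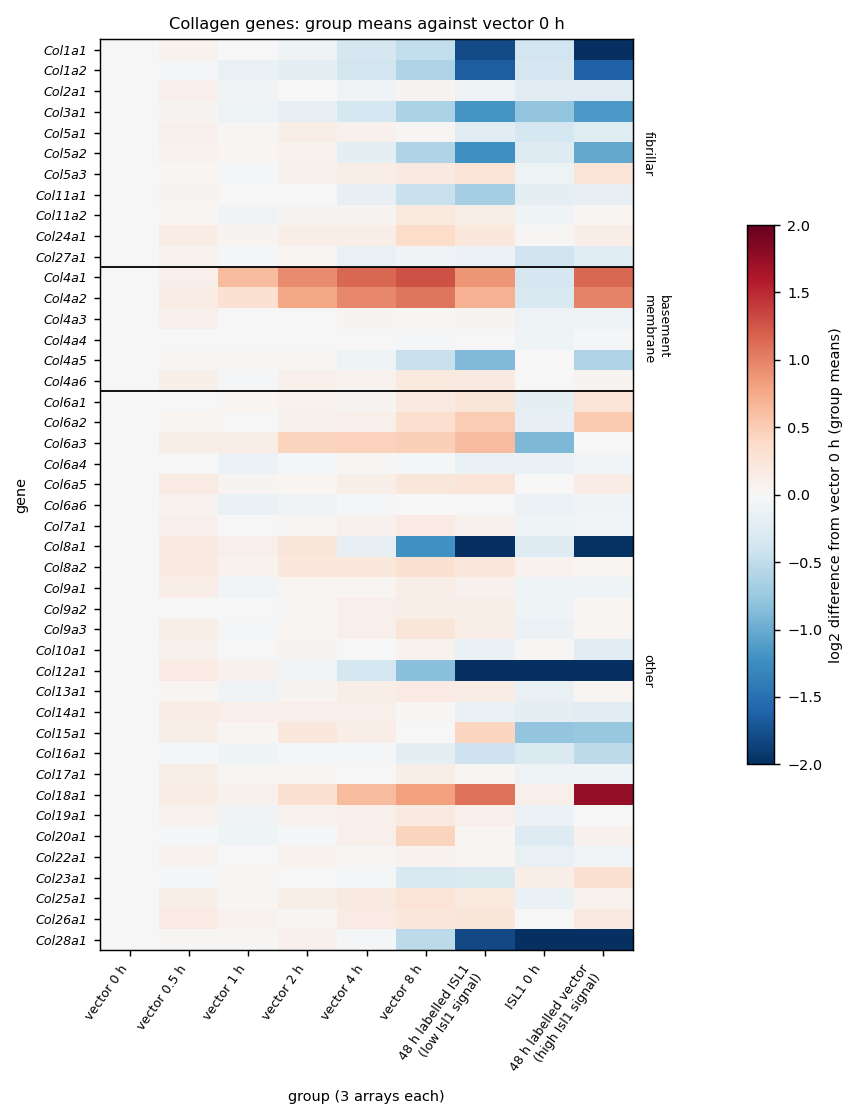
Group means of the 44 collagen genes (rows, by class) minus the vector 0 h mean of the same gene, in log2 units, for the 9 groups (columns, 3 arrays each). Colours stop at a difference of 2 in either direction, and the blue cells at 48 h include Col12a1 at −2.20 and −3.27. Col4a1, Col4a2 and Col18a1 are red from 2 h on, and Col1a1, Col1a2, Col3a1, Col5a2 and Col8a1 are blue at 8 h and 48 h.

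The first question was how collagen signal moved in vector cells over the first 8 h of the medium. Both type I chains, Col3a1, Col5a2, Col8a1 and Col12a1 fell. The ubiquitous type IV chains Col4a1 and Col4a2 rose, and so did Col18a1 and the type VI chains Col6a2 and Col6a3. Over vector arrays from 0 to 8 h, 16 of 44 collagens passed an F test for any change (limma, adjusted p under 0.05), against 51.7% of all genes. They were 5 fibrillar, 3 type IV and 8 other collagens. With array weights, 30 collagens passed this test, against 73.1% of all genes. The labels give no preparation batch for the arrays, and their accession numbers form one run for 0 h, one for 0.5 to 8 h and one for 48 h, so 8 h was also set against 0.5 h.

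At 0.5 h none of the 44 collagens passed the test against 0 h, and none had an unadjusted p under 0.05. Of all genes 0.777% were higher and 0.502% lower at that time. At 1 h Col4a1 and Col4a2 alone were higher and none was lower, adjusted or unadjusted, against 2.78% and 4.29% of all genes. With array weights Col6a3 and Col12a1 were higher too at 1 h and Col2a1, Col6a4, Col6a6 and Col9a1 lower, against 10.7% and 12% of all genes. By 2 h Col6a3, Col18a1 and Col15a1 had joined them, which made 5 of 44 higher, beside 10.9% of all genes. No collagen was lower at 2 h after adjustment and 2 were at an unadjusted p under 0.05, beside 17.5% of all genes. An intensity trend, array weights or a filter on dim genes gave 8 or 9 calls at 2 h, of which 2 were lower. At 4 h 4 collagens were higher and 6 lower, against 17.3% and 22.7% of all genes.

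At 8 h 9 collagens were higher than at 0 h and 10 lower, beside 24.2% and 21.9% of all genes. Among the fibrillar chains 1 was higher and 5 lower, among the type IV chains 2 and 1, and among the others 6 and 4. The median difference at 8 h was −0.07 for fibrillar, 0.12 for type IV and 0.14 for other collagens, and 0.07 for all genes. Against 0.5 h, within the same accession run, 7 collagens were higher and 10 lower at 8 h, beside 20.3% and 20.9% of all genes.

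Of the 11 fibrillar chains 5 were lower at 4 h and 5 at 8 h. Col1a1, the major chain of type I collagen, read 13.04, 12.90 and 12.96 at 0 h, 12.66, 12.65 and 12.58 at 4 h and 12.50, 12.51 and 12.39 at 8 h. Its partner Col1a2 read 13.38, 13.25 and 13.33 at 0 h, 12.97, 12.97 and 12.91 at 4 h and 12.72, 12.75 and 12.65 at 8 h. For both genes every 4 h and 8 h array lay below every 0 h array. Col1a1 fell by 0.34 ± 0.078 (SE, adjusted p = 0.000869) to 4 h and by 0.50 ± 0.078 (adjusted p = 5.69e-06) to 8 h, and Col1a2 fell by 0.61 ± 0.075 (adjusted p = 1.27e-07) to 8 h.

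Col3a1, the type III chain that forms fibrils with type I, read 11.99, 11.97 and 12.01 at 0 h and 11.37, 11.38 and 11.32 at 8 h. Col5a2, a type V chain found inside type I fibrils, read 10.59, 10.51 and 10.53 at 0 h and 9.83, 10.10 and 9.91 at 8 h. Neither gene's groups overlapped. Col3a1 fell by 0.63 ± 0.063 (adjusted p = 3.25e-09) and Col5a2 fell by 0.60 ± 0.076 (adjusted p = 2.68e-07) to 8 h. Col5a1, the chain that pairs with Col5a2, read 9.92, 9.76 and 9.87 at 0 h and 9.89, 9.93 and 9.80 at 8 h, so that its groups overlapped and it did not pass the test. Col11a1, a minor fibrillar chain of the type V and XI group, fell by 0.45 ± 0.065 at 8 h (adjusted p = 1.75e-06). Col24a1, another minor fibrillar chain, was the one fibrillar gene higher at 8 h than at 0 h, by 0.38 ± 0.11 (adjusted p = 0.00439). Its values went from 7.73, 7.75 and 7.85 to 8.30, 7.94 and 8.21. This rise is weak: Col24a1 did not pass the F test (adjusted p = 0.0581), and its mean of 7.91 lay below the median of all genes. Against 0.5 h, no fibrillar gene was higher at 8 h after adjustment.

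Col4a1 and Col4a2 passed the test from 1 h on. Col4a1 read 10.71, 10.53 and 10.58 at 0 h, 10.76, 10.60 and 10.78 at 0.5 h, 11.20, 11.24 and 11.28 at 1 h, 11.57, 11.57 and 11.53 at 2 h, and 11.88, 11.92 and 11.83 at 8 h. Col4a2 read 10.78, 10.54 and 10.56 at 0 h, 10.79, 10.69 and 10.84 at 0.5 h, 10.95, 10.86 and 11.00 at 1 h, 11.39, 11.40 and 11.39 at 2 h, and 11.70, 11.79 and 11.61 at 8 h. The 0 h and 0.5 h arrays overlapped for both genes, and from 1 h to 8 h no vector array was within the 0 h range. Col4a1 rose by 0.63 ± 0.078 to 1 h (adjusted p = 1.6e-06), by 0.95 ± 0.078 to 2 h (adjusted p = 2.82e-10) and by 1.27 ± 0.078 to 8 h (adjusted p = 4.31e-13), and Col4a2 rose by 0.31 ± 0.093 (adjusted p = 0.0411), 0.77 ± 0.093 (adjusted p = 2.52e-07) and 1.07 ± 0.093 (adjusted p = 2.76e-10). The Col4a2 call at 1 h rests on single arrays: without replicate 2 or 3 of vector 0 h, or replicate 1 or 3 of vector 1 h, 1 collagen, Col4a1, passed at that time. Within the shared accession run, 8 h exceeded 0.5 h by 1.16 ± 0.078 for Col4a1 and 0.93 ± 0.093 for Col4a2.

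The other type IV chains, which replace this pair in special basement membranes, did not follow. Col4a5 read 9.27, 9.12 and 9.08 at 0 h and 8.74, 8.68 and 8.73 at 8 h, with no overlap, and fell by 0.44 ± 0.064 (adjusted p = 2.06e-06). Col4a3, Col4a4 and Col4a6 had means of 7.79, 7.85 and 7.42 over all arrays, below the median of all genes, and passed no test in any comparison.

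Type VI collagen is built from Col6a1, Col6a2 and Col6a3 chains. Col6a3 read 11.82, 11.57 and 11.73 at 0 h, 12.21, 12.13 and 12.11 at 2 h and 12.16, 12.23 and 12.15 at 8 h, and it rose by 0.44 ± 0.076 by 2 h (adjusted p = 4.35e-05) and stayed near that level. Col6a2 read 12.15, 12.12 and 12.13 at 0 h and 12.45, 12.50 and 12.43 at 8 h, a rise of 0.33 ± 0.059 (adjusted p = 3.81e-05). The rise of Col6a1, from 12.33, 12.25 and 12.25 to 12.45, 12.50 and 12.43, was 0.19 ± 0.066 (adjusted p = 0.0231) and did not pass once the arrays were centred on their medians or quantile normalized. Col6a1 did not pass the F test from 0 to 8 h either (adjusted p = 0.181). All 3 chains had 8 h arrays above every 0 h array. Col6a4, Col6a5 and Col6a6, the chains that can take the place of Col6a3, did not pass.

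Among the collagens that border basement membranes or fibrils, Col18a1 rose and Col8a1, Col12a1 and Col28a1 fell. Col18a1, a multiplexin whose end fragment is endostatin, read 8.88, 8.84 and 8.88 at 0 h, 9.53, 9.59 and 9.38 at 4 h and 9.81, 9.71 and 9.55 at 8 h, and it rose by 0.83 ± 0.086 to 8 h (adjusted p = 7.14e-09). Col8a1, a short-chain network collagen, read 10.50, 10.58 and 10.40 at 0 h, 10.66, 10.73 and 10.81 at 2 h, 10.18, 10.47 and 10.35 at 4 h and 9.21, 9.32 and 9.31 at 8 h. Its mean went up to 10.73 at 2 h and was down to 10.33 at 4 h, with no overlap between these arrays. Most of its fall below the start came after 4 h: 8 h was 1.05 ± 0.094 below 4 h (adjusted p = 3.41e-09) and 1.21 ± 0.094 below 0 h (adjusted p = 3.5e-11).

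Col12a1, which coats type I fibrils, read 12.40, 12.10 and 12.25 at 0 h, 11.83, 12.03 and 11.83 at 4 h and 11.38, 11.49 and 11.35 at 8 h. It fell by 0.84 ± 0.085 to 8 h (adjusted p = 4.76e-09). Col28a1, a collagen with von Willebrand factor A domains, stayed near its start through 4 h (10.12, 10.18 and 10.14, against 10.20, 10.13 and 10.25) and read 9.63, 9.80 and 9.57 at 8 h, a fall of 0.53 ± 0.076 (adjusted p = 1.96e-06). For Col12a1 every 4 h and 8 h array lay below the 0 h arrays, whereas for Col28a1 this held at 8 h and not at 4 h. Col23a1, a transmembrane collagen, fell by 0.30 ± 0.088 at 8 h, and Col20a1 and Col8a2 rose by 0.44 ± 0.086 and 0.31 ± 0.12. Col8a2 had a mean of 7.71, below the median of all genes, and did not pass the F test (adjusted p = 0.31). Its mean was already 7.75 at 0.5 h, against 7.88 at 8 h.

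Col15a1, the other multiplexin, passed only at 2 h in this series, with 9.20, 9.13 and 9.20 at 0 h, 9.37, 9.38 and 9.43 at 2 h and 9.19, 9.26 and 9.04 at 8 h. It differed by 0.21 ± 0.073 at 2 h (adjusted p = 0.0307) and did not pass the F test from 0 to 8 h (adjusted p = 0.077).

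**Figure D2:**
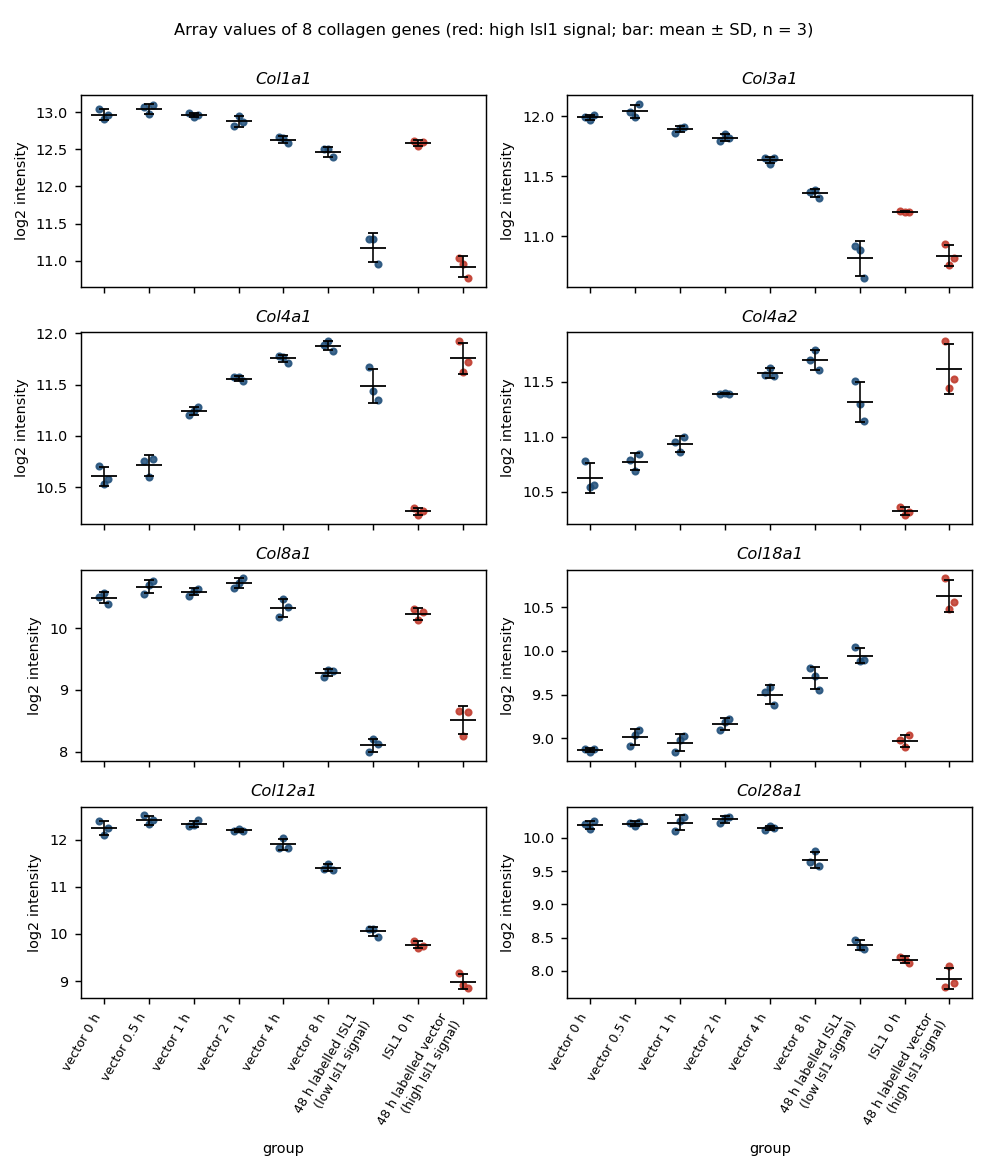
Log2 intensity of 8 collagen genes on each array (points, 3 a group) with the group mean and SD (bars), for the 9 groups. Red points are the groups with high Isl1 signal (ISL1 0 h and the 48 h arrays labelled vector), and the vertical scales differ between panels. Col4a1 and Col4a2 step up from 1 h, Col8a1 drops between 4 h and 8 h, and Col12a1 and Col28a1 are low in ISL1 cells at 0 h and in both 48 h groups.

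Markers of cell state moved in the same hours, and 6 of 8 measured fibroblast or preadipocyte markers were above the median of all genes in every group. Of these 8 markers 6 were lower at 8 h than at 0 h and none higher, against 21.9% and 24.2% of all genes, and their summed log2 level went from 94.2 to 94.7 at 0 h to 89.6 to 89.9 at 8 h. Of the 8 adipocyte markers 7 were lower at 8 h and none higher, and they summed to 85.3 to 86.2 at 0 h and 81.2 to 82.6 at 8 h. Endothelial markers were below the median of all genes throughout, with 0 of 6 above it in any group. In these bulk samples fewer cells of a type and less RNA per cell cannot be told apart, and the part of these shifts in the collagen results was not tested.

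The next question was where the collagens stood after 48 h. The arrays labelled ISL1 (low Isl1 signal) had 8 collagens above vector 0 h and 12 below, against 21.3% and 20% of all genes. The arrays labelled vector (high Isl1 signal) had 7 above and 13 below, against 18.1% and 18.7%. Both comparisons share the vector 0 h arrays. In the first, 1 fibrillar collagen was higher and 6 lower, and in the second 1 and 7. In both, 2 type IV collagens were higher and 1 lower. Fibroblast or preadipocyte markers moved in the same arrays: 8 of 8 were lower than in vector 0 h in the arrays labelled ISL1 (summed level 87.7 to 88) and 5 of 8 in those labelled vector (88.6 to 89.5), with none higher. Of the 8 adipocyte markers 7 were higher and none lower in the first (95.2 to 96.6), and 2 were higher and 3 lower in the second (80.9 to 82.4). Their part in the collagen values was not tested.

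Type I collagen fell furthest among the fibrillar genes. Col1a1 read 11.29, 11.29 and 10.96 in the 48 h arrays labelled ISL1 and 11.04, 10.96 and 10.77 in those labelled vector, each below its lowest 8 h value. Against vector 0 h it fell by 1.78 ± 0.078 (adjusted p = 4.25e-16) and by 2.04 ± 0.078 (adjusted p = 2.82e-17). Col1a2 read 11.77, 11.77 and 11.46 in the first group and 11.88, 11.61 and 11.64 in the second, falls of 1.65 ± 0.075 and 1.61 ± 0.075.

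Col3a1 read 10.92, 10.88 and 10.65 in the arrays labelled ISL1 and 10.93, 10.76 and 10.82 in those labelled vector, and Col5a2 read 9.47, 9.27 and 9.21 and then 9.65, 9.42 and 9.48. Both genes lay below their 8 h arrays in every 48 h array. Col3a1 fell by 1.17 ± 0.063 and 1.15 ± 0.063 from vector 0 h, and Col5a2 fell by 1.23 ± 0.076 and 1.03 ± 0.076. Col5a1 now passed too: it read 9.70, 9.68 and 9.53 and then 9.70, 9.57 and 9.56, and fell by 0.21 ± 0.063 and 0.24 ± 0.063 (adjusted p = 0.00753 and 0.00309). Col5a3, the third type V chain, was the one fibrillar gene higher at 48 h, by 0.28 ± 0.075 and 0.25 ± 0.075.

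The chains Col4a1 and Col4a2 stayed above their start, and Col4a5 fell further. Col4a1 read 11.67, 11.44 and 11.35 in the 48 h arrays labelled ISL1 and 11.92, 11.62 and 11.72 in those labelled vector, and Col4a2 read 11.51, 11.30 and 11.14 and then 11.87, 11.44 and 11.53. Against vector 0 h Col4a1 was 0.88 ± 0.078 and 1.14 ± 0.078 higher, and Col4a2 was 0.69 ± 0.093 and 0.99 ± 0.093 higher. Col4a5 read 8.28, 8.38 and 8.18 and then 8.52, 8.54 and 8.54, falls of 0.88 ± 0.064 and 0.62 ± 0.064.

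Among the type VI chains, Col6a1 read 12.64, 12.50 and 12.41 in the 48 h arrays labelled ISL1 and 12.68, 12.45 and 12.48 in those labelled vector, and Col6a2 read 12.71, 12.67 and 12.56 and then 12.76, 12.58 and 12.64. Both were higher than at 0 h in each group, by 0.24 ± 0.066 and 0.26 ± 0.066 for Col6a1 and by 0.51 ± 0.059 and 0.53 ± 0.059 for Col6a2. Col6a3 was split: it read 12.40, 12.33 and 12.22 in the arrays labelled ISL1, 0.61 ± 0.076 above vector 0 h, and 11.81, 11.63 and 11.66 in those labelled vector, inside the range of the vector 0 h arrays.

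In the arrays labelled ISL1 the largest falls were in Col12a1, Col8a1 and Col28a1, and in those labelled vector in Col12a1, Col28a1 and Col1a1. Col12a1 read 10.11, 10.11 and 9.93 in the arrays labelled ISL1 and 9.16, 8.92 and 8.86 in those labelled vector, falls of 2.20 ± 0.085 (adjusted p = 3.33e-17) and 3.27 ± 0.085 (adjusted p = 7.97e-21). Col28a1 read 8.47, 8.35 and 8.33 and then 7.76, 8.07 and 7.82, falls of 1.81 ± 0.076 and 2.31 ± 0.076. Col8a1 read 7.99, 8.20 and 8.13 and then 8.66, 8.26 and 8.64, falls of 2.39 ± 0.094 and 1.97 ± 0.094. No 48 h array of these 3 genes reached its 8 h range.

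Col18a1 went on rising, to 10.05, 9.89 and 9.90 in the arrays labelled ISL1 and 10.83, 10.48 and 10.56 in those labelled vector, which were 1.08 ± 0.086 and 1.76 ± 0.086 above vector 0 h. Col16a1, a fibril-associated collagen, fell by 0.42 ± 0.088 and 0.52 ± 0.088. Against vector 0 h Col15a1 was 0.43 ± 0.073 higher in the arrays labelled ISL1 and 0.76 ± 0.073 lower in those labelled vector, and Col23a1 was 0.29 ± 0.088 lower in the first and 0.31 ± 0.088 higher in the second. Col27a1 differed by −0.11 ± 0.093 in the first, which did not pass, and by −0.25 ± 0.093 in the second (adjusted p = 0.0381), and the 48 h groups did not differ past the test for this gene (−0.13 ± 0.093, adjusted p = 0.356).

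Against vector cells at 8 h, the 48 h arrays labelled ISL1 (low Isl1 signal) had 3 collagens higher and 13 lower, beside 15.7% and 14.9% of all genes. This is a change with time only if the Isl1 signal marks the construct, and with the titles as given it mixes construct with time. The 8 h and 48 h arrays also lie in different runs. Col12a1, Col1a1 and Col28a1 fell furthest after 8 h, by 1.36 ± 0.085, 1.28 ± 0.078 and 1.28 ± 0.076. Col4a1 and Col4a2, which had risen to 8 h, were then 0.39 ± 0.078 and 0.38 ± 0.093 lower (adjusted p = 0.000241 and 0.0018). The 3 that were higher were Col15a1 by 0.44 ± 0.073, Col18a1 by 0.25 ± 0.086 and Col6a2 by 0.19 ± 0.059. The 48 h arrays labelled vector were not tested against vector 8 h. Their means were 11.75 for Col4a1, 11.61 for Col4a2 and 8.42 for Col15a1, against 11.88, 11.70 and 9.17 at 8 h.

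Set against ISL1 cells at 0 h instead, the arrays labelled ISL1 at 48 h had 15 collagens higher and 8 lower (20.9% and 22.2% of all genes), which is the change with time if the titles hold. The arrays labelled vector at 48 h had 8 higher and 9 lower against ISL1 0 h (14.2% and 19%), which is the change with time if the Isl1 signal marks the construct. Col12a1 turned between the readings: it was 0.28 ± 0.085 higher in the arrays labelled ISL1 and 0.79 ± 0.085 lower in those labelled vector. Col28a1 did the same, at 0.22 ± 0.076 higher and 0.28 ± 0.076 lower. In both readings Col8a1 fell furthest (2.13 ± 0.094 and 1.71 ± 0.094), Col1a1 fell by 1.40 ± 0.078 and 1.66 ± 0.078, and Col4a1 rose by 1.22 ± 0.078 and 1.48 ± 0.078.

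The remaining question was what high Isl1 signal went with before induction. In ISL1 cells at 0 h 18 of 44 collagens were lower than in vector cells and none was higher, beside 10.4% of all genes lower and 15.3% higher. None of the collagens was higher at an unadjusted p under 0.05 either. The 18 held 7 of 11 fibrillar, 2 of 6 type IV and 9 of 27 other collagens. The count rests partly on single arrays, since 11 passed without replicate 1 of vector 0 h and 12 without replicate 2 of ISL1 0 h. The median difference was −0.26 for fibrillar, −0.09 for type IV and −0.13 for other collagens, and −0.01 for all genes.

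Col12a1 and Col28a1 showed the largest differences. Col12a1 read 12.40, 12.10 and 12.25 in vector cells and 9.85, 9.70 and 9.75 in ISL1 cells, 2.48 ± 0.085 lower (adjusted p = 7.93e-18). Col28a1 read 10.20, 10.13 and 10.25 in vector cells and 8.21, 8.18 and 8.11 in ISL1 cells, 2.03 ± 0.076 lower (adjusted p = 5.62e-17). In both genes the groups stood apart by many times the spread within them.

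Col6a3 came next, with 11.82, 11.57 and 11.73 in vector cells and 10.89, 10.79 and 10.76 in ISL1 cells, 0.89 ± 0.076 lower (adjusted p = 7.67e-10). Col3a1 read 11.21, 11.20 and 11.20 in ISL1 cells, against 11.97 to 12.01 in vector cells, 0.79 ± 0.063 lower (adjusted p = 2.04e-10). Col15a1 read 8.41, 8.44 and 8.31, against 9.13 to 9.20, 0.79 ± 0.073 lower (adjusted p = 3.08e-09). The groups did not overlap in any of these genes.

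The differences of the other named chains were smaller. In ISL1 cells Col1a1 read 12.61, 12.54 and 12.60, Col1a2 13.03, 12.96 and 12.97, Col5a1 9.51, 9.42 and 9.55 and Col5a2 10.34, 10.28 and 10.24, all below their vector arrays, by 0.39 ± 0.078, 0.34 ± 0.075, 0.36 ± 0.063 and 0.26 ± 0.076. Col4a1 read 10.30, 10.23 and 10.27 and Col4a2 10.36, 10.29 and 10.32, lower by 0.34 ± 0.078 and 0.30 ± 0.093 (adjusted p = 0.00137 and 0.0159). Col6a1 read 12.15, 12.06 and 12.04 and Col6a2 12.00, 11.91 and 11.98, lower by 0.19 ± 0.066 and 0.17 ± 0.059 (adjusted p = 0.0344 and 0.0296), and neither these nor Col5a2, Col8a1 and Col11a1 passed with the arrays centred on their medians. Col18a1 read 8.98, 8.90 and 9.04 in ISL1 cells against 8.84 to 8.88 in vector cells and did not pass.

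Other cell markers differed between the same arrays. All 8 adipocyte markers were lower in ISL1 0 h, with summed levels of 67.9 to 68.4 against 85.3 to 86.2, and Adipoq, an adipocyte hormone, read 6.56 against 10.76 on average. Lyz2, a macrophage lysozyme, averaged 12.05 in vector 0 h and 7.21 in ISL1 0 h, and then 7.57 and 6.76 in the 48 h arrays labelled ISL1 and vector, while it stayed at 11.39 or above in vector cells from 0.5 to 8 h. Cd68, another macrophage marker, did not follow: it averaged 8.31 in vector 0 h, 8.23 in ISL1 0 h and 9.20 in vector 8 h, and then 8.94 and 8.37 in the 48 h arrays labelled ISL1 and vector. The 6 macrophage and other blood markers summed to 47.9 to 48.2 in vector 0 h and 42.1 to 42.7 in ISL1 0 h. Most of this drop was in Lyz2, at −4.84, and the median difference of the 6 was −0.12. Past the test 2 were lower and 0 higher, beside 10.4% and 15.3% of all genes. In vector 0 h 3 were above the median of all genes, 8.28, and in ISL1 0 h 0. Of these 3, Cd68 and Cd14 lay close to it in vector 0 h, at 8.31 and 8.32. The part of these differences in the collagen result was not tested.

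At 48 h the arrays with high Isl1 signal (labelled vector) had 7 collagens above the arrays with low Isl1 signal (labelled ISL1) and 5 below, against 13.8% and 14% of all genes. Those below were Col15a1, Col12a1, Col6a3, Col28a1 and Col1a1, and those above were Col18a1, Col23a1, Col11a1, Col8a1, Col4a1, Col4a2 and Col4a5. Col15a1 read 8.26, 8.51 and 8.49 in the high arrays and 9.53, 9.74 and 9.55 in the low arrays, 1.19 ± 0.073 lower (adjusted p = 1.32e-12). Col12a1 was 1.07 ± 0.085 lower (adjusted p = 1.89e-10), Col6a3 0.62 ± 0.076 lower (adjusted p = 4.08e-07) and Col28a1 0.50 ± 0.076 lower (adjusted p = 1.02e-05), none with overlapping arrays.

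In the other direction, Col18a1 was 0.68 ± 0.086 higher in the high arrays (adjusted p = 5.95e-07). Col23a1 read 9.69, 9.69 and 9.75 there and 8.98, 9.40 and 8.95 in the low arrays, 0.60 ± 0.088 higher (adjusted p = 5.18e-06). Col11a1 read 9.10, 9.02 and 9.04 against 8.45, 8.68 and 8.54, 0.49 ± 0.065 higher (adjusted p = 9.8e-07). Groups of these 3 genes did not overlap, whereas those of Col4a1, Col4a2 and Col1a1, at 0.27 ± 0.078, 0.30 ± 0.093 and −0.26 ± 0.078, did, and these 3 did not pass when only the 48 h arrays were fitted. The adipocyte markers again differed, at 80.9 to 82.4 in the high and 95.2 to 96.6 in the low arrays, with all 8 lower, and their part in these values was not tested.

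Since the 0 h and 48 h comparisons use different arrays, they can be set side by side. Among the collagens 5 (and 3.52% of all genes) passed at both times with lower signal where Isl1 was high: Col1a1, Col6a3, Col12a1, Col15a1 and Col28a1. Another 4 (1.9% of all genes), Col4a1, Col4a2, Col8a1 and Col11a1, were lower with high Isl1 at 0 h and higher at 48 h. Each of these 4 patterns rests on a call that an alternative lost. The 0 h calls of Col8a1 and Col11a1 did not pass with the arrays centred on their medians. The 48 h calls of Col4a1 and Col4a2, and that of Col1a1, did not pass when only the 48 h arrays were fitted. At 0 h but not 48 h 9 passed, at 48 h but not 0 h 3, and at neither 23, beside 11.6%, 13.8% and 60.5% of all genes. The change in the Isl1-related difference from 0 h to 48 h passed its own test, an interaction term, upward in 13 collagens and downward in 1, against 11.4% and 13.2% of all genes. Upward means that the difference became less negative or more positive: for Col28a1 by 1.53 ± 0.11, for Col12a1 by 1.41 ± 0.12 and for Col3a1 by 0.81 ± 0.088. Col15a1 was the one that moved downward, by 0.40 ± 0.10 (adjusted p = 0.00471). Col28a1 averaged 8.17 in ISL1 0 h and 8.38 and 7.89 in the 48 h arrays labelled ISL1 and vector. These lie near 8.28, the median of all genes, and the part of low signal in its interaction was not tested.

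These values rest on the reading of the 48 h arrays by Isl1 signal, and an interaction does not simply change its sign when the titles are taken as given. With the titles, 10 collagens passed upward and 4 downward, against 12.7% and 16.3% of all genes. Col12a1 was then at 3.56 ± 0.12, Col28a1 at 2.52 ± 0.11, Col15a1 at 1.98 ± 0.10 and Col6a3 at 1.51 ± 0.11, and Col3a1 was at 0.77 ± 0.088. Col18a1, Col23a1, Col11a1 and Col4a5 turned downward, at −0.79 ± 0.12, −0.73 ± 0.12, −0.30 ± 0.091 and −0.26 ± 0.09. Col4a1, Col4a2, Col5a2 and Col8a1 no longer passed, and Col1a1, Col6a3, Col16a1 and Col27a1 did.

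**Figure D3:**
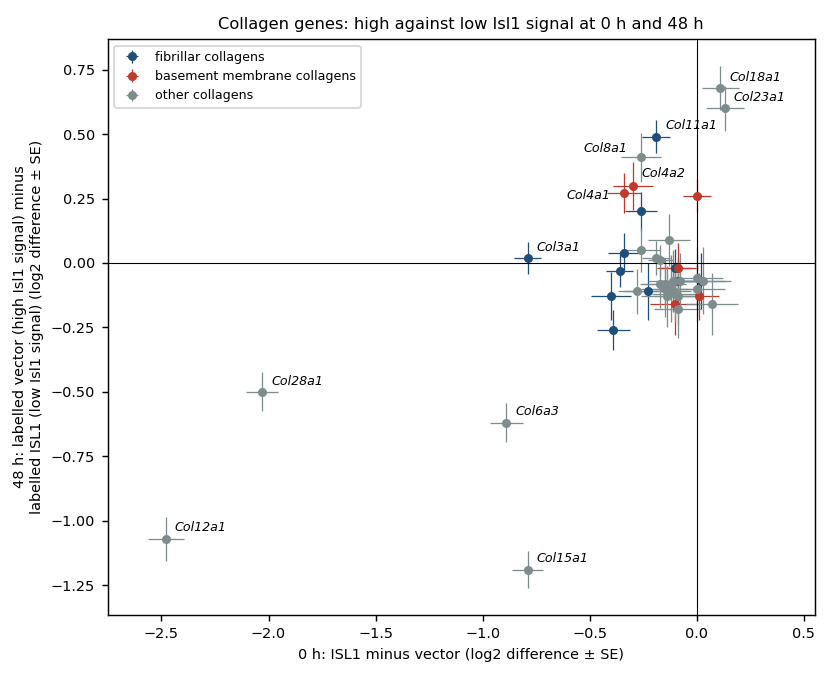
Log2 difference with SE of each collagen gene between high and low Isl1 signal, at 0 h (horizontal, ISL1 minus vector) and at 48 h (vertical, arrays labelled vector minus arrays labelled ISL1), coloured by class. Col12a1, Col28a1, Col6a3 and Col15a1 lie at the lower left, and Col18a1 and Col23a1 at the top near 0 on the horizontal axis.

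Chains of one molecule and genes next to each other on a chromosome were compared by their profiles over the 9 group means, which share arrays and are given as a description. Pearson's r was 0.99 for Col1a1 and Col1a2, the chains of type I collagen that lie on different chromosomes, and 0.99 for the neighbours Col4a1 and Col4a2. It was 0.96 for the neighbours Col6a1 and Col6a2 and 0.94 for Col3a1 and Col5a2, which are neighbours too. The neighbours Col4a5 and Col4a6, whose starts lie 1343 bases apart on opposite strands, had −0.59. Col6a3 had 0.72 with Col6a1 and 0.56 with Col6a2, and Col5a1 and Col5a2 had 0.62. The remaining neighbour pairs had 0.88 (Col9a1 and Col19a1), 0.6 (Col4a3 and Col4a4), 0.56 (Col6a5 and Col6a6) and −0.08 (Col6a4 and Col6a5). Of pairs chosen after their values were seen, Col8a1 and Col5a2 had 1 after rounding, and Col12a1 and Col28a1 had 0.99. Col1a1 and Col3a1 had 0.92, Col4a1 and Col1a1 −0.44, and Col15a1 and Col18a1, both multiplexins, −0.23. High values were thus not confined to partner chains or neighbours.

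A group of 17 collagens passed no test in any of the 18 comparisons fitted, with group means that ranged over 0.10 to 0.36. It held the cartilage collagens Col2a1, Col9a1, Col9a2, Col9a3, Col10a1 and Col11a2, the type IV chains Col4a3, Col4a4 and Col4a6, the type VI chains Col6a4, Col6a5 and Col6a6, and Col7a1, Col14a1, Col17a1, Col22a1 and Col26a1. Of the 17, 8 had means above the median of all genes. That median is no detection limit, and the part of low signal in their flat profiles was not tested. Of 6 chondrocyte markers, 1 (Sox9) was above that median. The share of all genes that passed none of the 18 comparisons was not counted, so the 17 have no background beside them. With array weights Col2a1, Col6a4, Col6a6, Col9a1, Col9a3, Col11a2 and Col26a1 did pass the F test from 0 to 8 h, as did 73.1% of all genes.

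Genes that handle collagen were taken from lists by role. Enzymes of chain modification and folding were measured for 16 of 17 listed genes, and 8 were higher and 3 lower at 8 h (50% and 18.8%, against 24.2% and 21.9% of all genes). P4ha2, a prolyl hydroxylase subunit that stabilises the helix, was 1.47 ± 0.09 higher (adjusted p = 3.69e-13), P4hb, its partner, 0.64 ± 0.052 higher, Plod2, a lysyl hydroxylase, 0.62 ± 0.084 higher, and P3h2, a prolyl 3-hydroxylase that acts on type IV chains, 1.01 ± 0.095 lower. At 48 h the arrays labelled ISL1 had 5 higher and 8 lower than vector 0 h (21.3% and 20% of all genes) and those labelled vector 6 and 6 (18.1% and 18.7%). P4ha3, another prolyl hydroxylase subunit, was 2.53 ± 0.065 lower in the first and 0.63 ± 0.065 lower in the second, and the 48 h groups differed by 1.90 ± 0.065 (adjusted p = 9.76e-18). In ISL1 cells at 0 h 2 were higher and 7 lower than in vector cells (15.3% and 10.4% of all genes), with P3h2 at 1.33 ± 0.095 lower.

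Export and propeptide removal had 11 of 12 genes measured, of which 6 were higher and 2 lower at 8 h (54.5% and 18.2%, against 24.2% and 21.9% of all genes). Tll1, a tolloid protease that trims procollagen, was 2.80 ± 0.12 higher (adjusted p = 2.08e-16) and Adamts14, which removes the amino propeptide, 0.88 ± 0.091 higher (adjusted p = 7.94e-09). In ISL1 cells at 0 h 2 were higher and 4 lower (15.3% and 10.4% of all genes). Pcolce2, an enhancer of propeptide removal, was 2.40 ± 0.08 lower and Tll1 1.84 ± 0.12 higher there. At 48 h Pcolce2 was lower than at vector 0 h by 1.59 ± 0.08 in the arrays labelled ISL1 and by 3.26 ± 0.08 in those labelled vector, and these 2 groups differed by 1.67 ± 0.08 (adjusted p = 1e-14).

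Of the crosslinking enzymes 5 of 6 were measured, and at 48 h 4 were lower and none higher than in vector 0 h in each group, with none higher at an unadjusted p under 0.05. Of all genes, 20% were lower in the 48 h arrays with low Isl1 signal and 18.7% in those with high. Lox, lysyl oxidase, was 1.68 ± 0.064 and 1.97 ± 0.064 lower in the arrays labelled ISL1 and vector, Loxl3 1.82 ± 0.065 and 1.56 ± 0.065 lower, and Loxl4 1.63 ± 0.10 and 1.43 ± 0.10 lower. At 8 h Lox was 0.37 ± 0.064 lower while Loxl3 was 0.49 ± 0.065 higher, so these 2 genes moved apart before both were low at 48 h. Pxdn, which crosslinks type IV collagen, was 0.73 ± 0.077 lower at 8 h (adjusted p = 8.75e-09), the hour at which Col4a1 and Col4a2 were highest.

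All 9 receptors and uptake genes were measured, of which 1 was higher and 4 lower at 8 h (24.2% and 21.9% of all genes). The collagen-binding integrin subunits Itga1 and Itga11 were 1.81 ± 0.088 and 1.66 ± 0.084 lower at 8 h (adjusted p = 3.77e-15 and 8.34e-15). At 48 h Itga1 was 2.74 ± 0.088 and 3.29 ± 0.088 lower than at vector 0 h in the arrays labelled ISL1 and vector, and Itga11 2.54 ± 0.084 and 2.83 ± 0.084 lower. Before induction they were 1.23 ± 0.088 and 0.98 ± 0.084 lower in ISL1 than in vector cells. Ddr2, a receptor tyrosine kinase for fibrillar collagen, was 1.04 ± 0.056 higher in the 48 h arrays with high Isl1 signal than in those with low (adjusted p = 8.4e-14).

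Of the genes for basement membrane partners 15 of 16 were measured, and 2 were higher and 3 lower at 8 h, shares of 13.3% and 20% that are no larger than the 24.2% and 21.9% of all genes. The laminin chains Lama5 and Lamc1 were 0.96 ± 0.079 and 0.84 ± 0.087 higher, alongside Col4a1 and Col4a2, while Lama4 was 1.75 ± 0.082 lower (adjusted p = 1.74e-15). In ISL1 cells at 0 h 8 were lower and none higher than in vector cells (10.4% and 15.3% of all genes), with none higher at an unadjusted p under 0.05. Nid2, a nidogen that links laminin to type IV collagen, was 0.92 ± 0.073 lower and Hspg2, perlecan, 0.58 ± 0.10 lower. At 48 h 5 were lower and none higher in the arrays labelled ISL1, where 2 were higher at an unadjusted p under 0.05, and 7 were lower and 2 higher in those labelled vector, beside 20% of all genes lower and 21.3% higher in the first and 18.7% and 18.1% in the second.

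**Figure D4:**
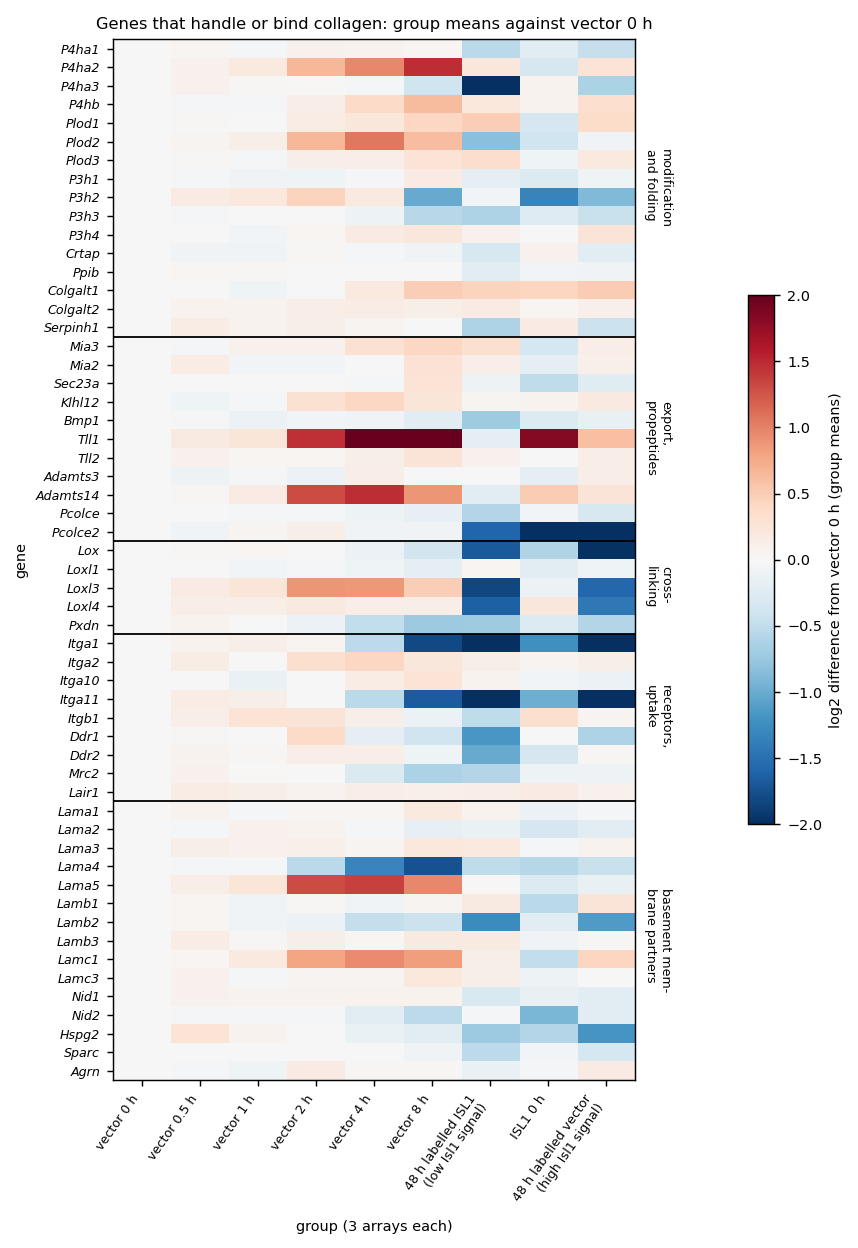
Group means of genes that modify, export, crosslink, bind or accompany collagen (rows, by list) minus the vector 0 h mean, in log2 units, for the 9 groups of 3 arrays (columns). Colours stop at a difference of 2. Tll1, Adamts14, Lama5 and P4ha2 are red at 4 h and 8 h in vector cells, and Lox, Loxl3, Loxl4, Itga1 and Itga11 are blue in both 48 h groups.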

How the data were processed

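RNA of the 27 samples was measured on Affymetrix mouse arrays. The deposited values are log2 intensities made with RMA, per the submitters' processing notes; that the scale is log2 was read from their range, 3.35 to 14.85, over 28853 probe sets. Genes were named from the platform annotation: 21789 probe sets carried 1 symbol, 1621 several and 5443 none, and 21698 of the first matched RefSeq. For the 999 genes with several probe sets, the probe set of highest mean signal stood for the gene. RMA compresses large differences, and log2 intensities of different probe sets were not compared.

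Group means over all 27 arrays were fitted with limma 3.58.1 in R 4.3.3 (empirical Bayes, Benjamini-Hochberg over 19938 genes, threshold 0.05). The fit was also run on simulated data with independent noise for each gene, which cannot show deviations shared by the genes of an array. The number of arrays, 3 a group, limits precision. The members and lists were chosen with earlier results of these data known. Array values in full are given for the main chains and for the 3 largest rises and falls in a comparison, and for each pathway list up to 4 genes past the test with the largest differences are named. Alternatives covered probe sets, scaling, filters, variance model, replicate block and left-out arrays.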

Additional observations from a re-analysis of the deposited data

Results flagged for a closer look

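In 14 collagen genes the difference between high and low Isl1 signal was not the same at 48 h as at 0 h, by the interaction term of the limma fit. The change, 48 h minus 0 h in log2 units, was 1.53 for Col28a1, 1.41 for Col12a1, 0.81 for Col3a1, 0.69 for Col11a1, 0.67 for Col8a1, 0.61 for Col4a1, 0.60 for Col4a2, 0.57 for Col18a1, 0.47 for Col23a1, 0.46 for Col5a2, 0.38 for Col1a2, 0.33 for Col5a1, 0.25 for Col4a5 and −0.40 for Col15a1. The 48 h side takes the arrays labelled vector as high and those labelled ISL1 as low. With the titles as given, Col15a1, Col18a1, Col23a1, Col11a1, Col4a5 and Col8a1 change sign.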

How the results depend on the processing

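With the 48 h constructs as titled, every difference between the 48 h groups changes sign by construction. In the interaction, 14 collagens passed again but not the same genes: the log2 value turned to 1.98 for Col15a1, −0.79 for Col18a1, −0.73 for Col23a1, −0.30 for Col11a1, −0.26 for Col4a5 and −0.16 for Col8a1 (not past the test), and Col4a1, Col4a2 and Col5a2 were lost. Single collagens were not followed under the alternatives for the steps between neighbouring times or for 8 h against 0.5 h. The same holds for the arrays labelled ISL1 at 48 h against ISL1 0 h. In the comparisons that were followed 153 differences passed the test, and none changed its direction under the other alternatives run. Of 153 differences of single collagens past the test, the replicate block took 4 below the threshold, an intensity trend with robust variance 4, quantile normalization (added after the data were seen) 6, array weights 7, centring on array medians 12, fitting only the groups compared 16, and a 2-fold minimum 115. Testing every single-symbol probe set or filtering dim genes took none, and 93 of 1002 differences were lost with 1 array left out.

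Counts of collagens past the test moved by over 1.5 times as follows. With array weights there were 8 at 1 h and 8 at 2 h against 0 h (2 and 5 otherwise), 7 from 0.5 to 1 h, 12 from 1 to 2 h and 12 from 2 to 4 h (1, 3 and 6 otherwise), and 30 in the F test (16 otherwise). With only the compared groups fitted there was 1 at 1 h. At 2 h there were 8 among genes above the olfactory receptor percentile, 9 among genes above the median and 8 with the trend. A 2-fold minimum left 0 at 1 h, 0 at 2 h, 1 at 4 h, 3 at 8 h and 3 at 8 h against 0.5 h. For the steps from 0.5 to 1 h, 1 to 2 h, 2 to 4 h and 4 to 8 h it left 0, 0, 0 and 1. For the 48 h arrays labelled ISL1 it left 8 against vector 0 h, 6 against ISL1 0 h and 5 against 8 h, and for those labelled vector 9 and 6. It left 2 for ISL1 0 h against vector 0 h, 2 between the 48 h groups and 2 in the interaction. Apart from this minimum, which is stricter by construction, the cause was not tested.

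With 1 array left out, counts ran from 1 to 2 at 1 h, 4 to 5 at 2 h, 8 to 9 at 4 h, 17 to 23 at 8 h, 16 to 17 for 8 h against 0.5 h, 11 to 17 for ISL1 0 h against vector 0 h, 19 to 21 and 18 to 20 for the 48 h groups against vector 0 h, 10 to 13 between the 48 h groups and 13 to 17 in the interaction. Centring on array medians moved the share of higher calls among all called genes from 39.3% to 51.8% at 1 h and 38.4% to 48.6% at 2 h. It moved this share from 51% to 72.1% from 0.5 to 1 h and 57.2% to 44% from 4 to 8 h. For ISL1 0 h against vector 0 h the share was 59.5%, 61.3% with centring and 50.9% with quantile normalization. Quantile normalization also moved it from 42.6% to 47.1% for the 48 h arrays labelled vector against ISL1 0 h, and from 46.4% to 52.4% in the interaction.

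Replicate numbers did not pair the arrays: in 4 of 36 pairs of groups all 3 same-number correlations exceeded 0.1, and in 5 every array correlated best with its own number. With the replicate block, 8 collagens passed at 4 h (10 without it) and 7 from 2 to 4 h (6 without it), 19 at 48 h in the arrays labelled vector (20 without it), and every other count of collagens was the same.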
